A study of Sus scrofa with 6 samples.

Results

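Amino acid transporters are the membrane proteins that bring amino acids into muscle fibres, and 9 of their genes were followed in the back muscle of pigs: SLC38A4, SLC38A1, SLC38A2, SLC7A8, SLC7A5, SLC7A1, SLC7A2, SLC3A2 and SLC1A5. They were taken by symbol from a table of 17627 genes, and 8 of the 9 were found there. SLC7A5 matched no row and is not analysed here. The tissue was longissimus dorsi, the muscle along the spine that gives the loin, with 3 libraries from Wannanhua pigs, a breed native to China, and 3 from Yorkshire pigs, which are bred commercially for lean growth. All 6 libraries carry an age of 5 months, while the design text of the series speaks of piglets; no treatment, sex or litter is given. The series asks which genes differ between the breeds.

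Skeletal muscle holds much of the body's protein, and its fibres draw on blood amino acids for protein synthesis and release others, mainly alanine and glutamine. The SLC38 proteins SLC38A1, SLC38A2 and SLC38A4 carry small neutral amino acids inward together with sodium. SLC7A5 and SLC7A8 are exchangers of neutral amino acids, among them leucine, and each works only when joined to the heavy chain SLC3A2. SLC7A1 and SLC7A2 bring in the cationic amino acids arginine and lysine, and SLC1A5 exchanges neutral amino acids such as glutamine.

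The reads recovered from the deposited counts summed, over all genes, to between 16385602 and 21056699 per library. Each transporter value below stands as FPKM, fragments per kilobase of transcript, scaled to the library's mapped fragments. The labels do not say that the libraries of a breed came from separate animals, so p-values measure the spread between libraries, which may be technical. Markers of muscle fibres were abundant: the slow-fibre markers found in the table (4 of 10 listed) summed to 10108 to 41054 FPKM in Wannanhua and 5577 to 17014 FPKM in Yorkshire. The fast-fibre markers found (6 of 10) summed to 11608 to 36607 FPKM in Wannanhua and 53825 to 54950 FPKM in Yorkshire. Wannanhua 3 stood apart from the other Wannanhua libraries in both lists, with the highest fast-fibre and the lowest slow-fibre sum of its breed.

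The mix of transporter transcripts differed between the breeds. SLC38A4 rose 7.14-fold by group means in Wannanhua muscle and SLC7A8 fell, being 10.3-fold lower there. These were 2 of the 6 transporters tested, 1 in each direction, in a comparison that called 3.05% of 11791 genes (1.76% higher and 1.29% lower). The other 4 tested genes, SLC38A2, SLC3A2, SLC7A2 and SLC1A5, did not pass. The test was limma on log2(FPKM + 1) with Benjamini-Hochberg adjustment over all tested genes and a threshold of 0.05, and a fold change on that scale understates the change of low genes. SLC7A1 and SLC38A1 stayed below the filter of 1 FPKM in at least 3 libraries. A count test, edgeR's quasi-likelihood test on the recovered reads, also called 2 of the 7 transporters it tested, SLC38A4 higher and SLC7A8 lower, beside 3.06% of 13066 genes (1.50% higher and 1.56% lower).

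**Figure D1:**
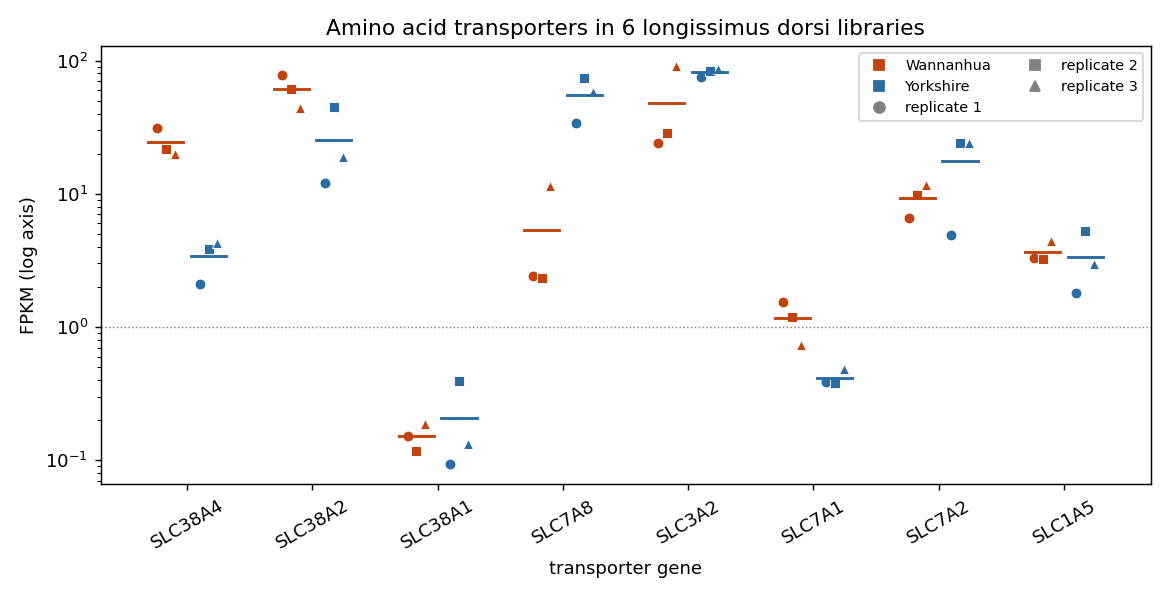
FPKM of the 8 transporters on a log axis, each point 1 library (marker shape, replicate number), with Wannanhua left of Yorkshire and a short line at each group mean; the dotted line is the filter at 1 FPKM. SLC38A4, SLC7A8 and SLC7A1 show no overlap between breeds, and Wannanhua 3 is set off from the other Wannanhua libraries for SLC7A8 and SLC3A2.

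SLC38A4 (ENSSSCG00000026597) encodes a sodium-coupled carrier of small neutral amino acids that also takes cationic ones, and in mouse it is imprinted. It had 31.4, 21.6 and 20.0 FPKM in Wannanhua 1, 2 and 3, against 2.11, 3.84 and 4.27 FPKM in Yorkshire 1, 2 and 3. All Wannanhua libraries were above all Yorkshire libraries, and the lowest Wannanhua value was 4.69 times the highest Yorkshire value. Behind these lay 1720, 1335 and 1134 reads in Wannanhua and 127, 253 and 292 reads in Yorkshire. The means were 24.3 ± 6.17 FPKM in Wannanhua and 3.41 ± 1.14 FPKM in Yorkshire (SD, n = 3 each). On the log2 scale it was higher by 2.53 ± 0.27 (SE; limma adjusted p = 0.00914), and edgeR gave 2.63 (adjusted p = 0.00749). The size of this change exceeded that of 99.4% of the tested genes. In bulk muscle, fewer cells that express a gene and less RNA per cell cannot be told apart. The gene passed without any 1 library too, with limma adjusted p values of 0.00966 to 0.0499.

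The place of SLC38A4 among the expressed genes of a library differed with it. It stood above 84.0%, 76.4% and 74.7% of the tested genes in Wannanhua 1, 2 and 3, and above 26.0%, 34.1% and 38.9% of them in Yorkshire 1, 2 and 3.

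SLC38A2 (ENSSSCG00000000808), a carrier of alanine, glutamine and other small neutral amino acids whose transcript is known to be induced when amino acids run short, was the most abundant of these 3 SLC38 genes in every library. It had 78.4, 61.6 and 44.3 FPKM in Wannanhua 1, 2 and 3, and 12.0, 45.2 and 18.8 FPKM in Yorkshire 1, 2 and 3. The groups overlapped narrowly, since Yorkshire 2 lay just above Wannanhua 3. The means were 61.5 ± 17.1 FPKM in Wannanhua and 25.3 ± 17.5 FPKM in Yorkshire (SD, n = 3 each). The log2 fold change of 1.42 ± 0.45 (SE) did not pass (limma adjusted p = 0.131; edgeR adjusted p = 0.172). The Yorkshire libraries differed 3.78-fold among themselves, against 1.77-fold in Wannanhua.

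SLC38A1 (ENSSSCG00000000807), a close relative with a like range of substrates, was barely detected. It had 5, 4 and 6 reads in Wannanhua 1, 2 and 3, and 3, 14 and 5 reads in Yorkshire 1, 2 and 3. In FPKM these were 0.117 to 0.188 in Wannanhua and 0.0933 to 0.393 in Yorkshire. A breed difference was not detectable at this depth.

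The SLC38 genes lie side by side in the pig genome. In the RefSeq annotation of Sscrofa11.1, which is a later build than that of the deposited table and is used here only for gene order, SLC38A1, SLC38A2 and SLC38A4 follow each other, with 1 unnamed coding locus between the first pair. The coding genes before SLC38A1 are ANO6, ARID2 and SCAF11. SCAF11 had a log2 fold change of 0.66 ± 0.17 (SE; limma adjusted p = 0.0872) and ANO6 of 1.0 ± 0.35 (SE; limma adjusted p = 0.160), without passing. After SLC38A4 come 1 unnamed locus, AMIGO2 and RPAP3, at -0.06 ± 0.20 and 0.30 ± 0.17 (SE; limma adjusted p = 0.883 and 0.341). Among the tested genes of this stretch, SLC38A4 alone passed. Of the flanking genes of the other transporters that were tested, none passed the limma threshold; the nearest was SLC46A3, beside SLC7A1, at 1.34 ± 0.28 (SE; limma adjusted p = 0.0504).

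SLC7A8 (ENSSSCG00000002032) encodes the light chain of an exchanger that takes up leucine and other neutral amino acids, small and large. It had 2.42, 2.32 and 11.4 FPKM in Wannanhua 1, 2 and 3, against 34.2, 74.3 and 57.8 FPKM in Yorkshire 1, 2 and 3. All Wannanhua libraries were below all Yorkshire libraries, and the lowest Yorkshire value was 2.99 times the highest Wannanhua value, that of Wannanhua 3. The reads behind these were 125, 132 and 600 in Wannanhua, against 1844, 4178 and 3520 in Yorkshire. The means were 5.39 ± 5.24 FPKM in Wannanhua and 55.5 ± 20.2 FPKM in Yorkshire (SD, n = 3 each). Its difference on the log2 scale came to -3.37 ± 0.54 (SE; limma adjusted p = 0.0321), and edgeR gave -3.49 (adjusted p = 0.0280). The size exceeded that of 99.8% of the tested genes. The call did not hold with 1 library fewer, except without Wannanhua 3 (limma adjusted p = 0.00412). Leaving out Wannanhua 1 or Wannanhua 2 gave 0.120 each, and the fits that lacked Yorkshire 1, 2 or 3 gave 0.0520, 0.0866 and 0.126. It was also lost without a filter on low values (limma adjusted p = 0.0579; edgeR adjusted p = 0.0593).

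SLC7A8 stood above 22.5% and 16.5% of the tested genes in Wannanhua 1 and 2 but above 62.8% in Wannanhua 3. In Yorkshire 1, 2 and 3 it stood above 84.8%, 91.9% and 89.9% of them. The gene thus ranked among the more abundant transcripts in all Yorkshire libraries, and Wannanhua 3 lay between them and the other Wannanhua libraries.

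SLC3A2 (ENSSSCG00000022404), the heavy chain that carries SLC7A5 and SLC7A8 to the cell surface, had 24.0, 28.6 and 91.2 FPKM in Wannanhua 1, 2 and 3. It had 75.2, 83.8 and 86.5 FPKM in Yorkshire 1, 2 and 3. The groups overlapped through Wannanhua 3, which was the highest of the 6 libraries, while Wannanhua 1 and 2 lay far below the rest. The means were 48.0 ± 37.6 FPKM in Wannanhua and 81.8 ± 5.89 FPKM in Yorkshire (SD, n = 3 each). The log2 fold change of -1.02 ± 0.46 (SE) did not pass (limma adjusted p = 0.244; edgeR adjusted p = 0.288). Without Wannanhua 3 it was -1.60 and passed (limma adjusted p = 0.00900), with 2 Wannanhua libraries.

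**Figure D2:**
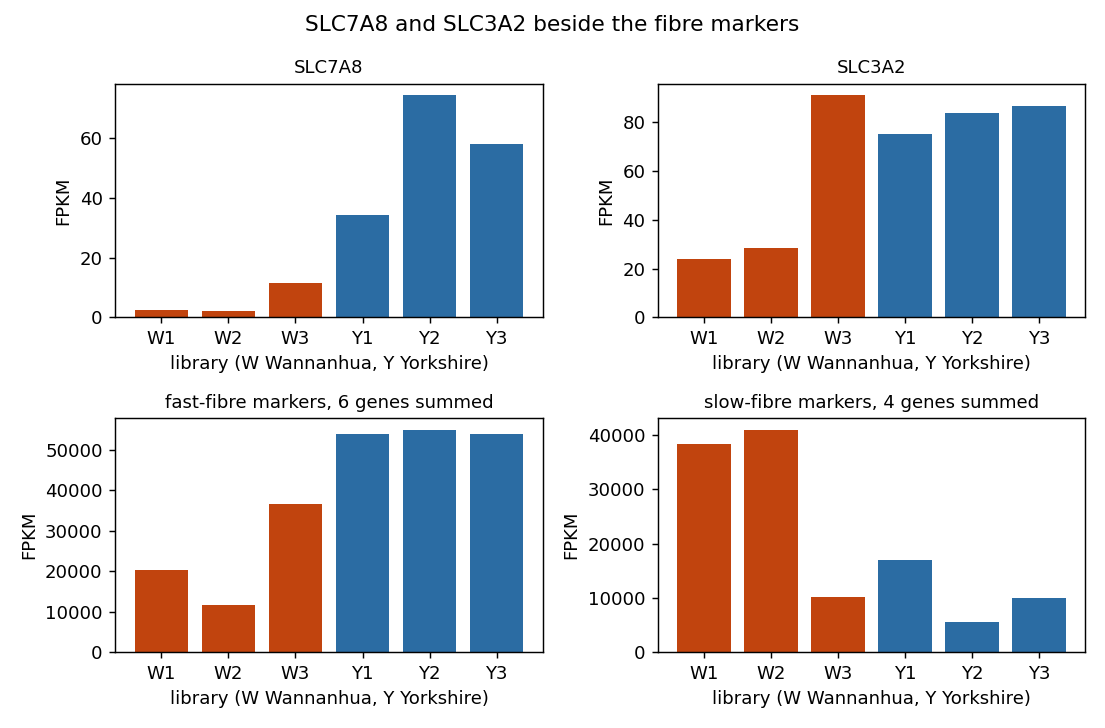
FPKM of SLC7A8, of SLC3A2, and summed over the fast-fibre and slow-fibre markers found in the table, 1 bar per library (W Wannanhua, Y Yorkshire, with the replicate number). Wannanhua 3 has the highest SLC7A8, SLC3A2 and fast-fibre levels of its breed and the lowest slow-fibre level.

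The library that set SLC7A8 and SLC3A2 apart within Wannanhua was also the one set apart by its fibre markers. Wannanhua 3 was the highest of its breed in FPKM for 41.5% of all tested genes and the lowest for 31.1%. Among the 6 tested transporters it was the highest of its breed for 4 and the lowest for 2. The fast-fibre sum was 20213, 11608 and 36607 FPKM in Wannanhua 1, 2 and 3, and 53825, 54950 and 53931 FPKM in Yorkshire 1, 2 and 3. The slow-fibre sum was 38305, 41054 and 10108 FPKM in Wannanhua 1, 2 and 3, and 17014, 5577 and 9978 FPKM in Yorkshire 1, 2 and 3. The fast-fibre sum, like SLC7A8, was lower in all Wannanhua than in all Yorkshire libraries. The single markers TNNC2, MYL1, CASQ1 and MYBPC2 were too, while ATP2A1 and PVALB overlapped. Of all tested genes, 9.63% were lower in Wannanhua without overlap and 20.3% were higher without overlap. All 6 fast-fibre markers had a negative log2 fold change (median -1.48), and the unadjusted limma p was under 0.05 for 4. Of the 6, 1 passed the limma threshold, being lower, against 0 in edgeR. The slow-fibre sum overlapped between the breeds, as SLC3A2 did. All 4 slow-fibre markers had a positive log2 fold change (median 1.40). Of these, 0 passed in limma (edgeR called 0, and the unadjusted limma p was under 0.05 for 1). Over all tested genes, the unadjusted limma p was under 0.05 for 2605 of 11791. The part of the fibre make-up in these results was not tested. For SLC38A4, Wannanhua 3 was the lowest of its breed at 20.0 FPKM, as it was for the slow-fibre sum, with Wannanhua 2 at 21.6 FPKM.

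The heavy chain exceeded the light chain SLC7A8 in every library, but by different amounts. SLC3A2 had 9.96, 12.3 and 7.98 times the FPKM of SLC7A8 in Wannanhua 1, 2 and 3, against 2.20, 1.13 and 1.50 times in Yorkshire 1, 2 and 3. The Wannanhua ratios were all above the Yorkshire ratios, Wannanhua 3 included. On the log2 scale the ratio averaged 3.31 ± 0.31 in Wannanhua and 0.63 ± 0.48 in Yorkshire (SD, n = 3 each), a difference of 2.68. The exact two-sided permutation test gave p = 0.10, the smallest that 3 against 3 libraries allow. The ratio uses the same SLC7A8 values as the call for that gene, so it is not a separate result. The light chain SLC7A5, meant to enter this ratio, has no value here.

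SLC7A2 (ENSSSCG00000006987), a carrier of arginine, lysine and ornithine, had 6.61, 9.86 and 11.6 FPKM in Wannanhua 1, 2 and 3. It had 4.89, 24.0 and 24.2 FPKM in Yorkshire 1, 2 and 3. Yorkshire 1 was the lowest library of all and the other Yorkshire libraries were the highest, so the groups overlapped. The log2 fold change of -0.61 ± 0.55 (SE) did not pass (limma adjusted p = 0.555; edgeR adjusted p = 0.255). Without Yorkshire 1 it was -1.31, still without passing (limma adjusted p = 0.0574).

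SLC7A1 (ENSSSCG00000029456), the widely expressed carrier of the same cationic amino acids, was scarce. It had 1.55, 1.19 and 0.739 FPKM in Wannanhua 1, 2 and 3, against 0.386, 0.379 and 0.480 FPKM in Yorkshire 1, 2 and 3. The lowest Wannanhua value was 1.54 times the highest Yorkshire value, so the groups did not overlap. The reads were 63, 46 and 27 in Wannanhua, against 14, 15 and 21 in Yorkshire. It was too low for the filtered test; edgeR gave a log2 fold change of 1.39 that did not pass (adjusted p = 0.0973). Of the 8 transporters, 3 had libraries that did not overlap between breeds (SLC38A4, SLC7A8 and SLC7A1), and of the 6 tested ones 2 did, 1 higher and 1 lower, beside 29.9% of all tested genes (20.3% higher and 9.63% lower).

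SLC1A5 (ENSSSCG00000003105), an exchanger of glutamine and other neutral amino acids, had 3.27, 3.26 and 4.39 FPKM in Wannanhua 1, 2 and 3. It had 1.80, 5.28 and 2.99 FPKM in Yorkshire 1, 2 and 3. The Wannanhua libraries lay within the range of the Yorkshire libraries. Its difference on the log2 scale came to 0.16 ± 0.30 (SE; limma adjusted p = 0.790; edgeR adjusted p = 0.964), and its sign turned after quantile normalization and without Yorkshire 1.

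**Figure D3:**
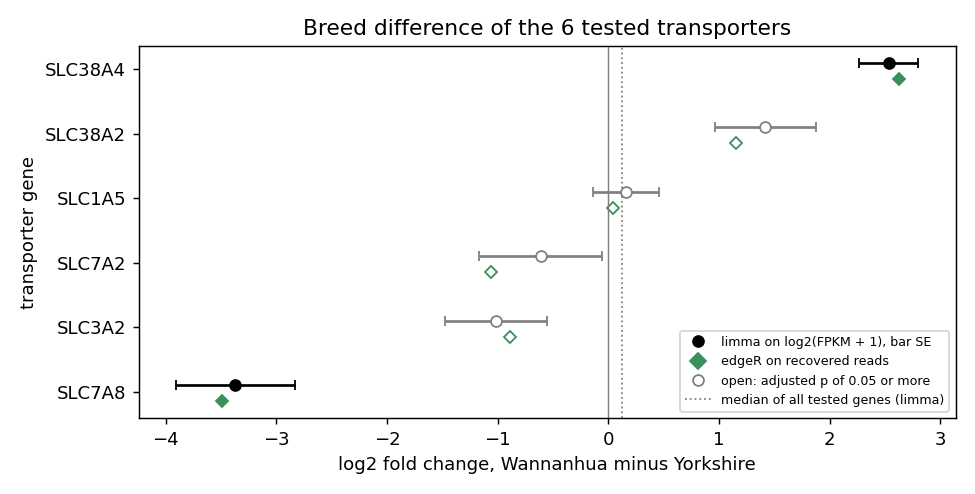
Log2 fold change of the 6 tested transporters, Wannanhua minus Yorkshire: circles are limma on log2(FPKM + 1) with the standard error as a bar, diamonds are edgeR on the recovered reads, and filled symbols passed an adjusted p of 0.05. SLC38A4 at 2.53 and SLC7A8 at -3.37 are the filled circles; the dotted line is the median of all tested genes, 0.12.

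The median log2 fold change of the 6 tested transporters was -0.23, with 3 positive and 3 negative, against a median of 0.12 over all tested genes. That median was 0.00 after quantile normalization, which made calls for 2 transporters as well. The changes of SLC38A4 and SLC7A8 were many times larger than this shift.

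The order of the transcripts differed between the breeds. In Wannanhua, SLC38A2 led at a mean of 61.5 FPKM, followed by SLC3A2 at 48.0 and SLC38A4 at 24.3 FPKM, and the libraries of these neighbours overlapped. SLC7A2, SLC7A8 and SLC1A5 came next, each overlapping its neighbour, with SLC7A2 clear of SLC38A4. In Yorkshire, SLC3A2 led at a mean of 81.8 FPKM, clear of SLC7A8 at 55.5 FPKM. SLC38A2 at 25.3 FPKM and SLC7A2 at 17.7 FPKM followed there, each overlapping the gene above it, and the libraries of SLC38A4 at 3.41 and SLC1A5 at 3.36 FPKM overlapped. SLC7A1 and SLC38A1 were the lowest in both breeds.

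The summed FPKM of the 8 genes overlapped between the breeds, at 147.9, 128.6 and 183.9 in Wannanhua 1, 2 and 3, against 130.7, 237.1 and 195.2 in Yorkshire 1, 2 and 3. Parts of its make-up did not overlap, namely the share of the SLC38 genes and the joint share of SLC7A8 and SLC3A2. These shares hold most of the sum between them, so they move against each other and are not separate results. SLC3A2 alone overlapped, at 16.3% to 49.6% in Wannanhua and 35.3% to 57.6% in Yorkshire. The SLC38 genes held 74.4%, 64.8% and 35.1% of the sum in Wannanhua 1, 2 and 3, against 10.8%, 20.8% and 11.9% in Yorkshire 1, 2 and 3. SLC7A8 and its heavy chain SLC3A2 held 17.9%, 24.0% and 55.8% in Wannanhua, against 83.7%, 66.7% and 73.9% in Yorkshire. Wannanhua 3 again stood between the other Wannanhua libraries and Yorkshire in both shares. The cationic carriers SLC7A1 and SLC7A2 together held 5.52% to 8.59% in Wannanhua and 4.04% to 12.7% in Yorkshire, with overlap.

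**Figure D4:**
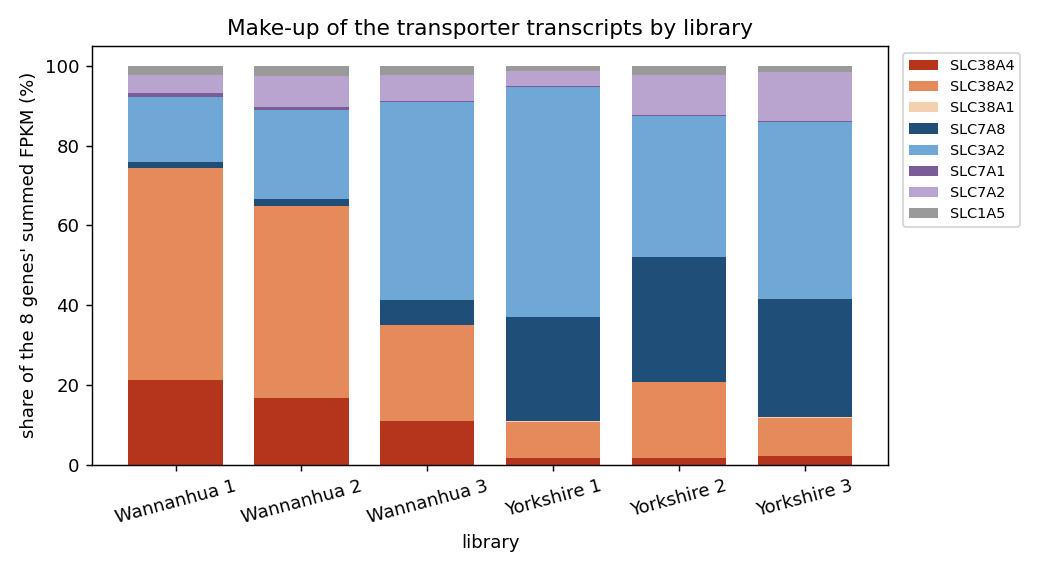
Share of the summed FPKM of the 8 transporters held by each gene, as stacked bars that reach 100% in each library. The SLC38 genes hold 35.1% to 74.4% in Wannanhua and 10.8% to 20.8% in Yorkshire, and SLC7A8 holds 1.63% to 6.22% in Wannanhua and 26.2% to 31.3% in Yorkshire.

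Within a library, the called genes traded places. SLC7A8 had 0.0769, 0.108 and 0.571 times the FPKM of SLC38A4 in Wannanhua 1, 2 and 3, against 16.2, 19.3 and 13.5 times in Yorkshire 1, 2 and 3. SLC38A4 was thus the more abundant of the pair in every Wannanhua library and SLC7A8 in every Yorkshire library. SLC38A4 had 0.400, 0.350 and 0.452 times the FPKM of SLC38A2 in Wannanhua 1, 2 and 3, and 0.177, 0.0851 and 0.228 times in Yorkshire 1, 2 and 3. SLC38A4 thus held a larger part beside SLC38A2 in every Wannanhua library. A ratio within a library shows unequal change and not which of the genes changed. The ratio of SLC7A8 to SLC38A4 uses the same FPKM values as their opposite calls and is not a separate result.

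Among the Yorkshire libraries, Yorkshire 1 had the lowest FPKM for all 6 tested transporters. The same library was the lowest of its breed for 51.1% of all tested genes, and it had the fewest genes at 1 FPKM (10726) and the largest share of reads in its 10 most abundant genes (26.5%). With reads scaled by edgeR's TMM factors, it was lowest for 5 of the 6 transporters and for 39.1% of the genes. The part of this library's make-up in those transporter levels was not tested.

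The genes most like each transporter over the 6 libraries were found by the Pearson coefficient of log2(FPKM + 1) among tested genes with a symbol; the 6 points share the split by breed and its libraries. For SLC38A4 these were ATP6V1B2, OTUD6B and ANK3, with coefficients of 0.998, 0.995 and 0.993. For SLC7A8 they were ZMAT5, CAMK2A and SNTB1 (0.996, 0.996 and 0.993), and for SLC3A2 they were GPD2, PFKP and SPPL3 (0.997, 0.994 and 0.993). SLC38A2 was nearest to N4BP2, PHF12 and GATAD2B (0.995, 0.993 and 0.988). SLC7A2 was nearest to CENPC, MBNL2 and SIK3 (0.994, 0.990 and 0.990), and SLC1A5 to ZNF280D, INTS12 and CD14 (0.986, 0.983 and 0.980). With only 3 genes kept out of all tested genes with a symbol, no transporter was among the nearest genes of another. Between transporters, SLC7A8 with SLC3A2 had 0.869, SLC38A4 with SLC38A2 had 0.851 and SLC38A4 with SLC7A8 had -0.899. SLC38A4 and SLC7A8 were called in opposite directions between the breeds. Their coefficient carries that split and is not a separate result. The other pairs of tested transporters ran from -0.698 to 0.648.

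The other amino acid transporters of the cell membrane made no call. Of 24 listed, 19 were matched by symbol, 7 were tested and 0 passed in limma (edgeR called 0, and the unadjusted limma p was under 0.05 for 1), with a median log2 fold change of 0.19. That unadjusted level was reached by 2605 of all 11791 tested genes. The most abundant was SLC6A8, which carries the amino acid derivative creatine, at 56.7 ± 16.8 FPKM in Wannanhua and 78.8 ± 6.59 FPKM in Yorkshire (SD, n = 3 each; limma adjusted p = 0.247). SLC43A2, a carrier of large neutral amino acids, had 32.5 ± 12.0 FPKM in Wannanhua and 22.3 ± 13.0 FPKM in Yorkshire (SD, n = 3 each; limma adjusted p = 0.422). SLC38A3, a glutamine carrier of the SLC38 family, had 29.1, 38.0 and 27.1 FPKM in Wannanhua 1, 2 and 3, against 24.7, 17.8 and 9.95 FPKM in Yorkshire 1, 2 and 3. Its libraries did not overlap, but the log2 fold change of 0.88 ± 0.32 (SE) did not pass (limma adjusted p = 0.169). SLC16A10, a carrier of aromatic amino acids, had 14.2 ± 11.5 FPKM in Wannanhua, where Wannanhua 3 was highest at 27.5, and 13.0 ± 6.93 FPKM in Yorkshire (SD, n = 3 each; limma adjusted p = 0.982). A further 11 of the 19, among them SLC7A11 and SLC1A2, stayed under 1 FPKM in all libraries.

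Carriers of lysosomes and other inner membranes also made no call, with 0 of 7 tested past the threshold in limma (edgeR called 0, and the unadjusted limma p was under 0.05 for 1) and a median of 0.16. The genes by which cells sense amino acids through the mTORC1 kinase complex had 0 of 23 past it (5 at an unadjusted p under 0.05, 0 in edgeR) and a median of 0.22. All tested genes had a median of 0.12, and 2605 of 11791 were at an unadjusted limma p under 0.05.

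Calls over the 6 lists beside the transporters were few and all lower in Wannanhua: 3 of 76 tested genes, or 3.95%, beside 3.05% of all genes (0 higher in limma and 3 lower). All 3 were enzymes. In the list of genes that respond to amino acid shortage through the factor ATF4, 1 of 11 passed, with a median of 0.00. This was PSPH, the last enzyme of serine synthesis, with 1.76, 1.87 and 1.96 FPKM in Wannanhua 1, 2 and 3, against 4.53, 3.96 and 5.24 FPKM in Yorkshire 1, 2 and 3 (limma adjusted p = 0.0397). PHGDH, the first enzyme of the same pathway, was below the filter at 0.0766 ± 0.0143 FPKM in Wannanhua and 0.660 ± 0.227 FPKM in Yorkshire (SD, n = 3 each). PHGDH had 3, 2 and 2 reads in Wannanhua 1, 2 and 3, against 13, 28 and 20 in Yorkshire 1, 2 and 3. It was called by edgeR (adjusted p = 0.0191), whose count filter it passed only through its Yorkshire reads. The size of a change is uncertain at so few Wannanhua reads. PSAT1, the enzyme between them, overlapped between the breeds at 1.38 FPKM in Wannanhua and 1.11 FPKM in Yorkshire, and its log2 fold change of 0.22 did not pass (limma adjusted p = 0.686). ATF4 itself and 11 more of the 25 listed genes were not matched by symbol and are not analysed here.

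Among genes of branched-chain amino acid breakdown, 1 of 18 passed, and the median was 0.15. BCAT2, the mitochondrial aminotransferase that takes the first step for leucine, isoleucine and valine, had 24.3, 22.6 and 28.1 FPKM in Wannanhua 1, 2 and 3, against 47.7, 49.3 and 50.6 FPKM in Yorkshire 1, 2 and 3. It fell in Wannanhua with little spread within either breed (log2 fold change -0.95 ± 0.16 SE, limma adjusted p = 0.0363). BCKDHB, a subunit of the next enzyme, had 23.9 ± 5.39 FPKM in Wannanhua and 44.0 ± 6.48 FPKM in Yorkshire (SD, n = 3 each); it passed in edgeR (adjusted p = 0.0454) and not in limma (adjusted p = 0.0808). The other subunits of that complex did not pass. DBT had 19.0 FPKM in Wannanhua and 9.03 FPKM in Yorkshire without overlap (log2 fold change 0.92, limma adjusted p = 0.145). BCKDHA had 13.0 FPKM in Wannanhua and 12.2 FPKM in Yorkshire (log2 fold change 0.10, limma adjusted p = 0.783). DLD had 173 FPKM in Wannanhua and 146 FPKM in Yorkshire (log2 fold change 0.25, limma adjusted p = 0.573). Of the 18 tested genes of the list, 13 had a positive and 5 a negative log2 fold change.

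Among enzymes of glutamine, alanine and arginine, 1 of 10 passed, and the median was 0.08. ARG2, the mitochondrial arginase that splits arginine, had 1.91, 1.93 and 3.03 FPKM in Wannanhua 1, 2 and 3, against 8.20, 26.4 and 32.8 FPKM in Yorkshire 1, 2 and 3 (log2 fold change -2.65 ± 0.46 SE, limma adjusted p = 0.0397). Each of these enzyme calls in limma was lost when Wannanhua 1, Wannanhua 2, Yorkshire 2 or Yorkshire 3 was left out, with adjusted p values of up to 0.140 for ARG2, 0.138 for BCAT2 and 0.151 for PSPH. BCAT2 and PSPH were lost without Yorkshire 1 as well, and PSPH without Wannanhua 3.

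**Figure D5:**
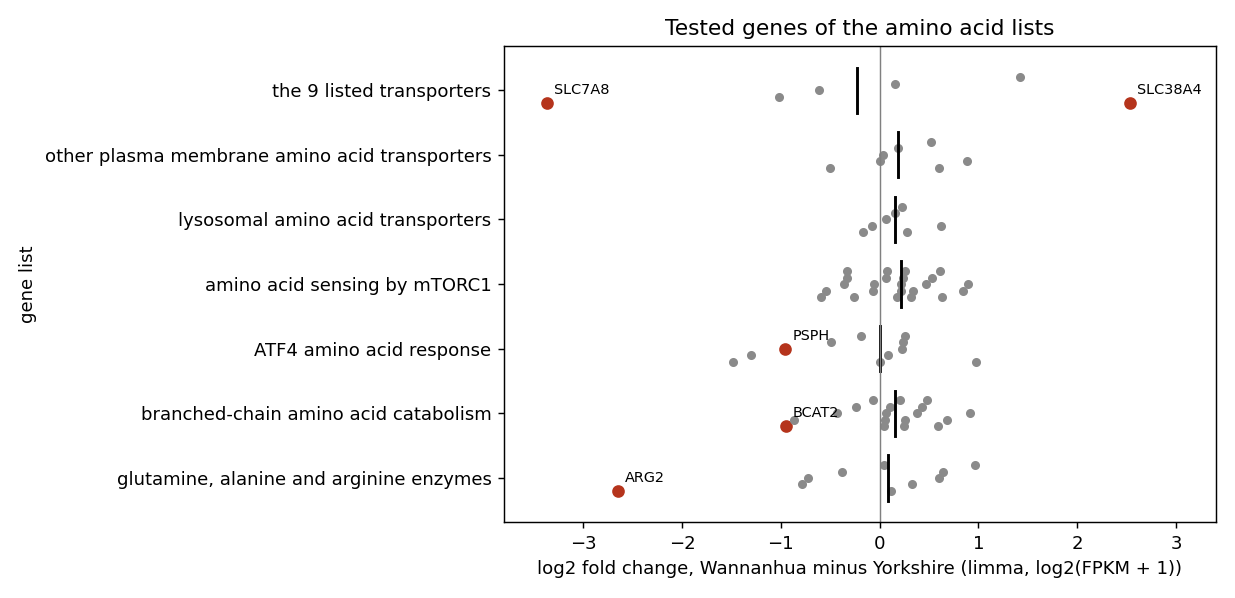
Log2 fold change, Wannanhua minus Yorkshire, of each tested gene in the 7 amino acid lists, 1 point per gene, with a black line at each list's median; named red points passed the limma threshold. SLC7A8 at -3.37 and ARG2 at -2.65 lie furthest to the left, and SLC38A4 at 2.53 lies furthest to the right.

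Markers of other cells of the muscle were compared as summed FPKM. The endothelial list (6 of 10 found) stood at 59.6 to 86.1 in Wannanhua and 60.7 to 72.1 in Yorkshire. Macrophage markers (6 of 10) stood at 14.6 to 17.9 in Wannanhua and 11.8 to 24.1 in Yorkshire, and adipocyte markers (4 of 10) at 42.5 to 53.7 in Wannanhua and 17.7 to 52.0 in Yorkshire. Fibroblast markers (7 of 10) stood at 305.8 to 388.6 in Wannanhua and 325.8 to 796.3 in Yorkshire, and satellite cell markers (7 of 8) at 25.0 to 35.7 in Wannanhua and 33.9 to 62.3 in Yorkshire. A sum can hide members that move in opposite directions. Of the 6 tested satellite cell markers, 2 had a positive and 4 a negative log2 fold change, and 0 passed in limma or edgeR. Their unadjusted limma p was under 0.05 for 3, beside 2605 of all 11791 tested genes. Erythroid markers (4 of 7) ran from 43.7 to 144.1 in Wannanhua and from 15.8 to 93.9 in Yorkshire. Only the nerve and Schwann cell list (3 of 7) did not overlap among these, at 7.37 to 11.2 in Wannanhua and 0.809 to 5.05 in Yorkshire, with NGFR and CDH19 under 1 FPKM in all libraries. None of these lists held a gene at 0 in all 6 libraries, and their part in the transporter levels was not tested.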

How the data were processed

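The deposited table gives 1 value per gene and library. Per the file headers, the authors' FPKM is scaled for transcript length and mapped fragments. The authors' deposited count values are not whole and were read as a signal: reads that had been divided by 1 factor in each library. Of the values above 0, 99.71% to 99.82% came out as whole multiples of that step (within 0.01 of a read, or a relative 1e-05), and dividing by it recovered the reads. The step was taken from the most frequent value near 1, because 1 to 3 values per library lay below 1 read. CASAVA 1.7, TopHat2 2.0.6 and the build Sscrofa10.2 are named in the submitters' processing notes. How reads were counted, and on which annotation, stays unstated, not given in the sources used here. Per the labels, poly-A RNA was used with a kit that keeps no strand, so antisense reads cannot be told apart. Symbols matched 10384 of 17627 identifiers (58.9%).

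Genes at 1 FPKM in at least 3 libraries were fitted with limma 3.58.1 (trend and robust) in R 4.3.3 on log2(FPKM + 1), breed as the only term; 7 abundant genes listed at 0 in some library were left out. EdgeR 4.0.16 (TMM, its own filter) on recovered reads was the count test and an alternative, with the others given in the closing section. Scripts were tested on simulated data. The members, lists and rules were chosen with earlier results of these data known. The named genes were all transporters, the 3 nearest genes of each tested one, up to 4 called members of each list and the 4 most abundant other transporters. PHGDH, PSAT1, BCKDHB, DBT, BCKDHA, DLD, the 6 fast-fibre markers (TNNC2, MYL1, CASQ1, MYBPC2, ATP2A1 and PVALB), SLC7A11, SLC1A2 and flanking genes were added after their values were seen. Sums of FPKM are over the genes found; 1 marker of the nerve and Schwann cell list is not reported here and was taken out of its sum.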

Additional observations from a re-analysis of the deposited data

How the results depend on the processing

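SLC38A4 was higher in Wannanhua and past the threshold under all 16 alternatives (log2 fold change 2.30 to 2.83), and SLC7A8 was lower under all 16 but past the threshold under 9. The transporters called numbered 2 as reported, 1 without a filter on FPKM, 1 in edgeR without a filter, and 1 to 3 over the 6 fits that left out 1 library. All genes called numbered 360 as reported, 69 without a filter, 205 with the replicate block and 27 to 524 with 1 library left out (lowest without Yorkshire 3, highest without Wannanhua 3). The enzyme and pathway lists gave 3 calls as reported, 5 in edgeR with TMM or RLE scaling and 5 without its filter, 1 with the replicate block, and 0 to 3 with 1 library left out. For these lists, limma without a filter gave 0 calls and 21 genes at an unadjusted p under 0.05, beside 3191 of all 17620 genes fitted. Higher genes were 208 of 360 calls as reported and 138 of 338 after quantile normalization. SLC1A5 turned to -0.0050 after quantile normalization and ran from -0.12 to 0.46 with 1 library left out. SLC16A10 turned to -0.14 after quantile normalization and ran from -0.55 to 0.40 with 1 library left out. The ratio of SLC3A2 to SLC7A8 kept its direction throughout (2.45 to 2.93 with 1 library left out). The cause of these moves was not tested. Whether the replicate numbers pair the libraries is not stated, and the values do not settle it. Same-numbered libraries 1, 2 and 3 had coefficients of 0.10, -0.01 and 0.11 between their deviations from the breed means. Libraries of unlike number had -0.13 to 0.02. All of these coefficients are small. With the replicate block 2 transporters were called. Depth limits SLC38A1, with 3 to 14 reads per library.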
